A study of Mus musculus with 10 samples.

Results

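Pim2, Enpp2, Wt1 and Vrtn are 4 mouse genes whose transcripts were lower in Esrrb-positive than in Esrrb-negative embryonic stem (ES) cells and also lower in Zscan4-positive than in Zscan4-negative ES cells. They were chosen by those measured differences out of 32361 rows of the deposited expression table, so their low levels in these sorts are a description and were not tested. The cells were of the E14Tg2a.4 mouse ES line. Cells carrying a double knock-in of fluorescent reporters at Esrrb and Tbx3, which both encode naive pluripotency factors, were sorted into 3 fractions. Those called double-negative were Esrrb-Negative Tbx3-Negative, those called single-positive were Esrrb-Positive Tbx3-Negative, and those called double-positive were Esrrb-Positive Tbx3-Positive. Another line, which carried a Zscan4c promoter fragment reporter on piggyBac, so that its fluorescence reads this fragment and not the gene itself, was sorted into Zscan4c-Positive and Zscan4c-Negative cells, here called Zscan4-positive and Zscan4-negative. Each fraction had 2 libraries, collected on different days, but the deposited table holds 1 merged value per gene and fraction in FPKM, fragments per kilobase of transcript scaled to mapped fragments. No SD, p-value or replicate check could therefore be given for any difference, and read depth is unknown. For culture medium and the number of clones per line, the sources used here give nothing. The double-negative and single-positive columns also held transcripts of fibroblast genes, at a sum of 1475 FPKM in double-negative cells and 1057 FPKM in single-positive cells, against 20.6 to 33.4 FPKM in the other fractions.

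ES cells move from a naive state through a formative state, which prepares the epiblast for lineage choice, towards a primed state. Esrrb marks the naive end of this path, while Zscan4 marks a rare, transient state with transcripts of the early embryo. Pim2 encodes a serine/threonine kinase of the PIM family, which is active as soon as it is made, so that its amount sets its activity, and which promotes cell survival and growth. Enpp2 encodes autotaxin, a secreted lysophospholipase D that makes the signalling lipid lysophosphatidic acid (LPA). Wt1 encodes a zinc finger transcription factor best known for its part in kidney, gonad and mesothelium development and for its loss in Wilms tumour. Vrtn encodes vertnin, a nuclear protein whose gene is linked in pigs to the number of thoracic vertebrae. Of the 4, Pim2 has been used as a marker of the exit from the naive state. The other genes are not standard formative markers, so the name formative-like was read as a label of the pattern and not of a cell state. Transcripts of the 4 were also not absent from the deposited values, since each gene was listed above 0 in every fraction. Whether the sorted cells themselves expressed them in the low fractions was not tested.

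In the deposited table, whose coordinates are on the mouse build mm10, Pim2 lay on chromosome X at 7878306 to 7883432, Enpp2 on chromosome 15 at 54835217 to 54920146, Wt1 on chromosome 2 at 105126529 to 105173614 and Vrtn on chromosome 12 at 84641019 to 84651455. All are protein-coding in GENCODE M21, with Enpp2 on the minus strand and the others on the plus strand. RefSeq promoter sequences of the same assembly (GRCm38.p6) were at hand for 2 of the 4, Pim2 and Vrtn. They are shown as sequence context for these genes. The 250 bases before the start that equals the start of the deposited row are given for chrX:7878056-7878305 and chr12:84640769-84641018, both on the plus strand, 5′ to 3′, with motif matches in capitals.
Pim2 promoter: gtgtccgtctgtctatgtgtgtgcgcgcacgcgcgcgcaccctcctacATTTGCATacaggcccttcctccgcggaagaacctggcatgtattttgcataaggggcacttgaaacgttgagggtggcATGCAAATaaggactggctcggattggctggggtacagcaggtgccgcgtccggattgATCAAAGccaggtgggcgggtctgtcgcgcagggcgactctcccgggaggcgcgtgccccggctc
Vrtn promoter: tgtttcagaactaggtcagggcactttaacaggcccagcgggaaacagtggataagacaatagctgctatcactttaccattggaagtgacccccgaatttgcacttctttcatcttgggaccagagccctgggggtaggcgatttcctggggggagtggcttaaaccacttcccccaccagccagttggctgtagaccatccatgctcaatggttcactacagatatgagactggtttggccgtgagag

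The motifs were chosen after the Pim2 sequence had been seen and were searched on both strands: the octamer ATGCAAAT bound by POU factors, AAGGTCA as an ESRRB site, CTTTGAT as a TCF/LEF site and GGATTA as an OTX site. The Pim2 promoter held the octamer at positions -202 to -195 on the minus strand and -123 to -116 on the plus strand, counted back from the start, and the TCF/LEF letters at -65 to -59 on the minus strand. No match overlapped another. Among 32817 RefSeq mouse promoters of the same length, 1.60% held the octamer at least once and 0.0975% at least 2 times, 3.21% held the TCF/LEF letters, 4.08% the ESRRB letters and 6.25% the OTX letters. The Vrtn promoter shown, and the sequences before the other 2 Vrtn starts in that table, held none of these letters. Because of how the motifs were chosen, a match before Pim2 and none before Vrtn is no finding, and a match describes the letters and not a bound site.

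Pim2, the most abundant of the 4, was at 180.2 FPKM in double-negative cells, 20.04 FPKM in single-positive cells and 18.9 FPKM in double-positive cells. In the other line it was at 27.7 FPKM in Zscan4-positive against 66.0 FPKM in Zscan4-negative cells. Double-negative cells thus stood far above the rest, Zscan4-negative cells followed, and the remaining fractions lay close together. FPKM is per transcript length, but levels compared between genes in this table need care, since Gapdh, a glycolysis gene that ES cells express highly, was listed at only 0.845 to 1.24 FPKM. As listed, in double-negative cells Pim2 lay at the 97.2 percentile of the 13595 rows that reached 1 FPKM in at least 1 fraction, while the other genes lay between the 49.3 and the 53.0 percentile.

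Enpp2 was at 12.8 FPKM in double-negative cells, 1.53 FPKM in single-positive cells and 0.874 FPKM in double-positive cells, and at 0.777 FPKM in Zscan4-positive against 4.403 FPKM in Zscan4-negative cells. It was the only one of the 4 whose lowest level was in Zscan4-positive cells. Wt1 was at 11.8 FPKM in double-negative cells, 1.45 FPKM in single-positive cells and 1.37 FPKM in double-positive cells, and at 1.86 FPKM in Zscan4-positive against 5.66 FPKM in Zscan4-negative cells. Vrtn was at 11.1 FPKM in double-negative cells, 1.51 FPKM in single-positive cells and 1.14 FPKM in double-positive cells, and at 1.61 FPKM in Zscan4-positive against 4.31 FPKM in Zscan4-negative cells. Pim2, Wt1 and Vrtn shared the full order double-negative, Zscan4-negative, Zscan4-positive, single-positive, double-positive from high to low.

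**Figure D1:**
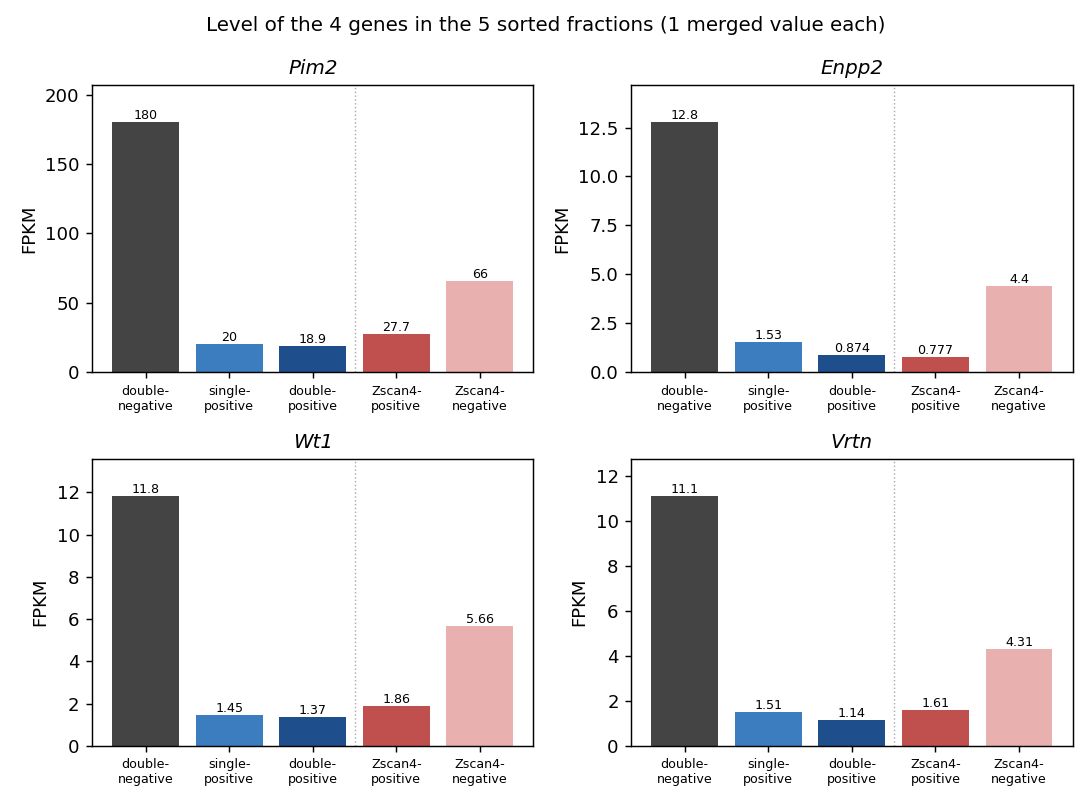
FPKM (y axis, from 0, its own scale for each gene) of Pim2, Enpp2, Wt1 and Vrtn in the 5 sorted fractions (x axis), 1 bar per merged deposited value, with no error bars because replicate values were merged. In each panel the double-negative bar is the highest, at 180.2, 12.8, 11.8 and 11.1 FPKM, and the Zscan4-negative bar is next.

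The neighbours in that order were not equally far apart. Zscan4-negative cells lay below double-negative cells by differences of log2(FPKM + 1) of -1.43 for Pim2, -1.35 for Enpp2, -1.19 for Vrtn and -0.94 for Wt1. Only Wt1 was within 2-fold on this scale, which understates differences of low genes. In FPKM its Zscan4-negative level was 47.9% of the double-negative level. The 3 low fractions stayed within 2-fold of each other for every gene: single-positive minus Zscan4-positive was -0.45 for Pim2, 0.51 for Enpp2, -0.22 for Wt1 and -0.06 for Vrtn. Without replicate values it could not be said which of these neighbours differed beyond their spread. That full order was found in 141 of the 13595 rows (1.04%), and double-negative highest with Zscan4-negative next in 900 rows (6.62%).

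Single-positive were compared with double-negative cells to see what goes with Esrrb while Tbx3 is low (the Esrrb step), and this comparison helped to choose the genes. The single-positive level was 11.1% of the double-negative level for Pim2, 12.0% for Enpp2, 12.3% for Wt1 and 13.6% for Vrtn, which is 8.99-fold, 8.34-fold, 8.12-fold and 7.38-fold lower. The proportional drop of Pim2, the abundant gene, was thus close to that of the other genes, whose levels were alike. On the scale of log2(FPKM + 1), which understates differences of low genes, the differences were -3.11, -2.44, -2.38 and -2.27. All 4 were at least 2-fold lower, as were 1.43% of all compared rows, while 1.82% were at least 2-fold higher. In a sorted population fewer cells that express a gene and less RNA per cell cannot be told apart.

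Zscan4-positive were compared with Zscan4-negative cells to see what goes with the Zscan4 state (the Zscan4 sort), the other comparison that chose the genes. The Zscan4-positive level was 17.6% of the Zscan4-negative level for Enpp2, 32.9% for Wt1, 37.3% for Vrtn and 42.0% for Pim2. This drop was smaller than that of the Esrrb step for each gene and less even between them, from 2.38-fold for Pim2 to 5.67-fold for Enpp2. Pim2, which had the largest drop in the Esrrb step, had the smallest here in proportion. On the log2(FPKM + 1) scale the differences were -1.60 for Enpp2, -1.22 for Pim2, -1.22 for Wt1 and -1.03 for Vrtn, so Vrtn lay just past the 2-fold mark. At least 2-fold lower were 0.875% of all compared rows, and 3.46% were at least 2-fold higher. With a pseudocount of 5 in place of 1, Enpp2 (-0.70), Wt1 (-0.64) and Vrtn (-0.49) no longer reached 2-fold, and Pim2 (-1.12) did.

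**Figure D2:**
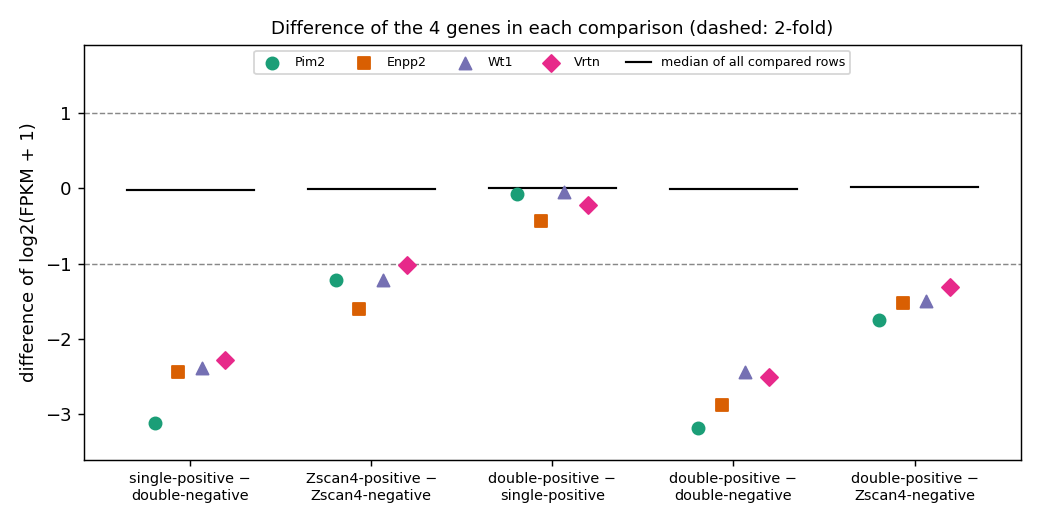
Difference of log2(FPKM + 1) (y axis) of Pim2, Enpp2, Wt1 and Vrtn in 5 comparisons (x axis), 1 point per gene, with the median of all compared rows as a black line and dashed lines at 2-fold. The points lie between -3.11 and -2.27 in the Esrrb step, between -1.60 and -1.03 in the Zscan4 sort and between -0.43 and -0.05 in the Tbx3 step.

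Double-positive were compared with single-positive cells, which asks what goes with Tbx3 once Esrrb is on (the Tbx3 step). This comparison was not used to choose the genes, but it shares the single-positive column with the Esrrb step. Wt1 was at 1.37 FPKM in double-positive against 1.45 FPKM in single-positive cells, a difference of -0.05 on the log2(FPKM + 1) scale. Pim2 (-0.08), Vrtn (-0.23) and Enpp2 (-0.43) were also slightly lower in double-positive cells. None of the 4 reached 2-fold, as was so for most rows. At least 2-fold lower were 6.94% of all compared rows, and 0.346% were at least 2-fold higher. The lower rows include 11 of 11 compared fibroblast genes and 9 of 11 compared T lineage genes, whose transcripts the single-positive column also held. So this share is not one of ES cell genes alone. Enpp2 had the widest gap, at 57.1% of its single-positive level.

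Over the whole Esrrb/Tbx3 series, double-positive against double-negative cells, the differences were -3.18 for Pim2, -2.88 for Enpp2, -2.50 for Vrtn and -2.43 for Wt1. All 4 were at least 2-fold lower, against 12.2% of all compared rows, a share that also includes the fibroblast and T lineage genes held by the double-negative column. Enpp2 was the gene with the lowest remainder, at 6.84% of its double-negative level, while Pim2, Wt1 and Vrtn kept 10.5%, 11.6% and 10.3%. The double-negative column is shared with the Esrrb step, so these values are not independent of it.

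Double-positive and Zscan4-negative cells come from different reporter lines. In double-positive cells Pim2 was at 28.7%, Vrtn at 26.4%, Wt1 at 24.2% and Enpp2 at 19.8% of the Zscan4-negative level. The log2(FPKM + 1) differences ran from -1.75 for Pim2 to -1.31 for Vrtn, and all 4 were at least 2-fold lower, against 0.816% of all compared rows. The Zscan4-negative column also served to choose the genes. Of the 42 other rows that met both choosing comparisons at 2-fold, 29 were at least 2-fold lower here too. Reporter line and sorted state cannot be told apart in this comparison.

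In all, 46 of 13595 rows (0.338%) were at least 2-fold lower in both sorts, which is 23.6% of the 195 rows lower in the Esrrb step and 38.7% of the 119 rows lower in the Zscan4 sort. These sorts share no column. The 4 genes are thus a small choice out of a larger set. Among protein-coding and long noncoding genes they ranked 1 (Pim2), 7 (Enpp2), 8 (Wt1) and 9 (Vrtn) from the most negative difference in the Esrrb step, but 32, 7, 33 and 78 in the Zscan4 sort. Among such genes, those just inside the 2-fold mark were Vrtn, through its Zscan4 sort difference, and the claudin gene Cldn7, at -1.01 in the Esrrb step and -1.04 in the Zscan4 sort, and Sema6a (-1.49 and -0.99) and Hes6 (-0.98 and -1.73) lay just outside. Of the 195 rows, 136 stayed within 2-fold in the Zscan4 sort and 13 were at least 2-fold higher there. With pseudocounts of 0.1 and 5 the number lower in both was 108 and 6.

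**Figure D3:**
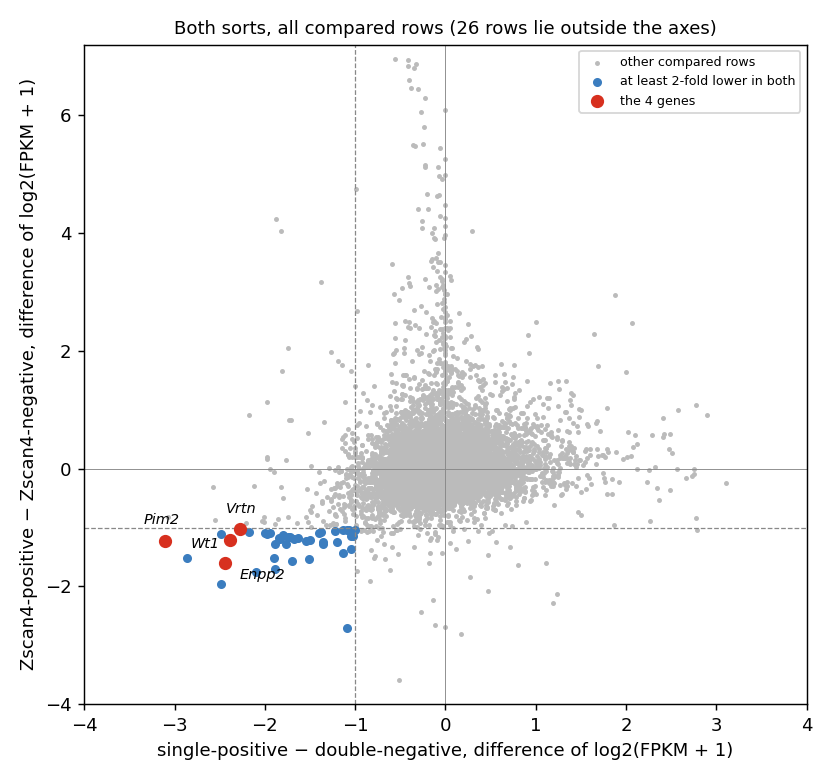
Each point is a compared row, with the Esrrb step on the x axis and the Zscan4 sort on the y axis, both as differences of log2(FPKM + 1), with dashed lines at 2-fold lower and 26 rows outside the axes. The 46 rows lower in both sorts sit in the lower left, with Pim2 at -3.11 and -1.22 near its left edge and Vrtn at -2.27 and -1.03 near its upper edge.

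Other genes with the pattern of the 4 were looked for by the distance between log2(FPKM + 1) profiles over the 5 fractions, each centred on its own mean, among 9758 protein-coding or long noncoding rows that reached 5 FPKM in any fraction. Wt1 and Vrtn were nearest to each other (distance 0.26), closer than any other pair of the 4, whose distances ran up to 0.72 for Pim2 and Enpp2. Both had Tmem54, a membrane protein gene, at 0.30 and Fndc3c1, a fibronectin type III domain gene, at 0.33 from Wt1 and 0.32 from Vrtn as the next. The nearest to Pim2 were Wt1 (0.60), the interferon-inducible GTPase gene Gbp5 (0.61) and Vrtn (0.67). The nearest to Enpp2 were Oasl2 (0.55), an interferon-induced gene of the oligoadenylate synthetase family, Gbp5 (0.57) and the protocadherin gene Pcdh1 (0.57).

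Nearest to the mean profile of the 4 were Tmem54 (0.47), Fndc3c1 (0.53), the immunoglobulin superfamily gene Igdcc4 (0.60) and Pcdh1 (0.63). Tmem54 was at 6.95 FPKM in double-negative cells, 0.988 FPKM in single-positive cells and 0.578 FPKM in double-positive cells, and at 1.13 FPKM in Zscan4-positive against 3.55 FPKM in Zscan4-negative cells. Igdcc4 was at 12.4 FPKM in double-negative cells, 3.07 FPKM in single-positive cells and 1.91 FPKM in double-positive cells, and at 2.35 FPKM in Zscan4-positive against 6.46 FPKM in Zscan4-negative cells. The measure decides part of these lists. By Pearson correlation, the number of genes still among the nearest was 2 of 5 for the mean profile and 2 of 3 for Pim2. It was 0 of 3 for Enpp2, 1 of 3 for Wt1 and 0 of 3 for Vrtn. Which pair of the 4 is closest also depends on the measure. The correlation was 0.996 for Pim2 and Wt1 and 0.993 for Wt1 and Vrtn.

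**Figure D4:**
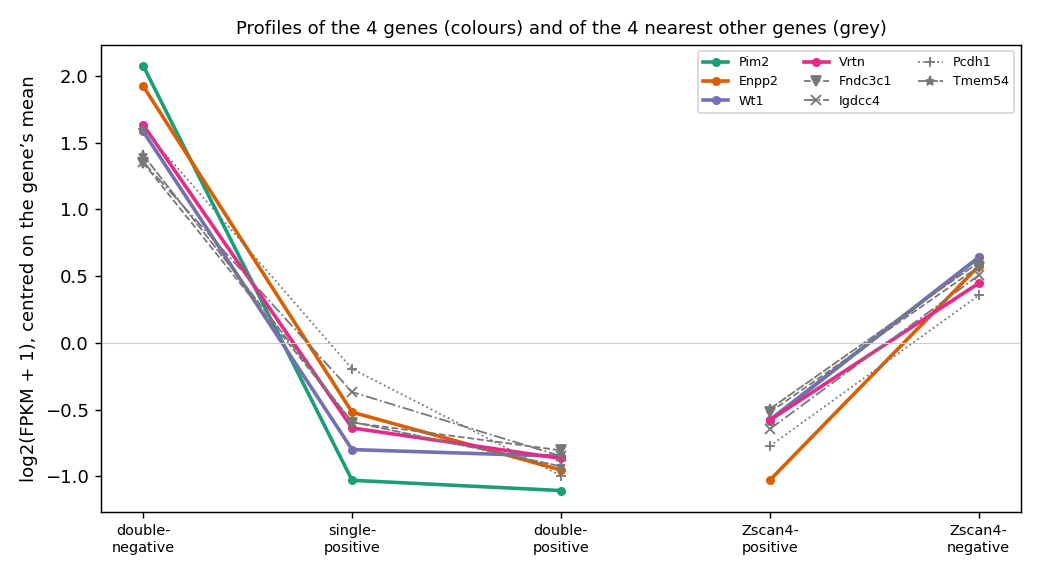
log2(FPKM + 1) centred on each gene's mean (y axis) in the 5 fractions (x axis) for Pim2, Enpp2, Wt1 and Vrtn in colour and for the 4 nearest other genes in grey, with lines joining fractions of 1 reporter line. The profiles of Wt1 and Vrtn, 0.26 apart, nearly coincide, and Enpp2 is the only coloured line whose Zscan4-positive point is its lowest.

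Formative and primed epiblast genes were read beside the 4 to check the label. Of 16 such genes, Pim2 not included, 9 were at least 2-fold lower and 0 higher in the Esrrb step, with a median of -1.09 against -0.02 over all compared rows, and 5 were lower and 0 higher in the Zscan4 sort, with a median of -0.74 against -0.01. The wingless ligand gene Wnt8a, the zinc finger gene Sall2 and the DNA methyltransferase gene Dnmt3a were the 3 lower in both, at -2.49 and -1.10, -1.496 and -1.21, and -1.05 and -1.14. Pou3f1 (-3.07), a POU factor gene, Car4 (-2.57), a carbonic anhydrase gene, and Sox3 (-2.17) went with Pim2 in the Esrrb step but were at -0.83, -0.31 and 0.91 in the Zscan4 sort. Fgf5, a growth factor gene widely used to mark the formative state, was at -1.97 and 0.17. Otx2, a homeobox factor gene, was at -0.82 and -1.38. The list thus did not move as a whole with the 4 genes in the Zscan4 sort. Of 16 naive factors 10 were higher and 0 lower in the Esrrb step (median 1.78), and in the Zscan4 sort Tbx3 (1.55) and Nanog (1.02) were higher and Gbx2 (-1.49) was lower (median 0.31). With columns scaled to equal totals Nanog did not reach 2-fold. Among 12 pluripotency factors common to both ends of the path none was past 2-fold in the Esrrb step and Dppa2 (1.33) was higher in the Zscan4 sort, with medians of 0.22 and -0.06.

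The relatives of Pim2 were read next. Pim1 was at 85.8 FPKM in double-negative cells, 106 FPKM in single-positive cells and 129 FPKM in double-positive cells, and at 182 FPKM in Zscan4-positive against 119 FPKM in Zscan4-negative cells. Pim3 was at 97.9 FPKM in double-negative cells, 142 FPKM in single-positive cells and 187 FPKM in double-positive cells, and at 158 FPKM in Zscan4-positive against 152 FPKM in Zscan4-negative cells. Pim2 was thus the most abundant of the 3 kinase genes in double-negative cells and the least abundant in every other fraction. Of 11 compared genes of the PIM family and of its JAK/STAT regulators, 0 were past 2-fold in the Esrrb step (median 0.06) and 0 in the Zscan4 sort (median -0.14). The 12 genes of PIM substrates and survival targets, among them Bad and Eif4ebp1, also held 0 past 2-fold in either sort (medians -0.02 and -0.07). Over all compared rows 1.43% were lower and 1.82% higher in the Esrrb step, and 0.875% lower and 3.46% higher in the Zscan4 sort, so counts at or near 0 in lists of this size are close to the background and are no result about these lists or about those on Enpp2, Wt1 and Vrtn that follow.

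Among relatives of Enpp2, 4 of 6 reached 1 FPKM. Enpp3 was at 19.2 FPKM in Zscan4-positive against 53.6 FPKM in Zscan4-negative cells (-1.43), while in the Esrrb step it was at 44.7 FPKM in single-positive against 50.6 FPKM in double-negative cells (-0.18). Enpp1, Enpp4 and Enpp5 stayed within 2-fold in both sorts, and the family medians were -0.08 and -0.35. Of 10 compared genes for LPA receptors, lipid phosphate phosphatases and related lipases, 0 were past 2-fold in the Esrrb step (median -0.17). In the Zscan4 sort (median -0.23) the receptor gene Lpar1 was higher (1.62) and Lpar6 lower (-1.08).

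Genes linked to WT1 were read in the same way. Of 9 compared genes on the partner list, Bmp4 was the only one past 2-fold, higher in the Esrrb step (1.59), with medians of 0.19 and -0.05. It is a BMP ligand gene and no partner in the strict sense. Of 16 compared target genes, the podocyte membrane protein gene Podxl was lower (-1.40) and the growth factor gene Pdgfa higher (1.55) in the Esrrb step (median -0.30), and Snai1, a repressor gene of epithelial genes, was higher (2.05) in the Zscan4 sort (median -0.07). The related zinc finger genes Sp1, Sp3 and Egr1 stayed within 2-fold in both sorts (medians 0.09 and -0.07). Of 14 compared Notch and segmentation genes, listed for the role of vertnin in vertebra number, 0 were past 2-fold in the Esrrb step (median -0.19) and Dll3, a Notch ligand gene, was lower in the Zscan4 sort (-1.07, median 0.19).

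The genes beside the 4 in the genome were read too. Within 100 kb of their rows, 13 other rows could be compared, 10 of them around Pim2, 2 around Enpp2, 1 around Vrtn and 0 around Wt1. Their differences ran from -0.36 to 0.85 in the Esrrb step and from -0.45 to 0.50 in the Zscan4 sort, so that none was past 2-fold. Over all compared rows 1.43% were lower and 1.82% higher in the Esrrb step, and 0.875% and 3.46% in the Zscan4 sort. None of 13 is close to these shares and is no result about these loci. Slc35a2, whose row lies 812 bases from that of Pim2, was at 10.4 FPKM in single-positive against 13.6 FPKM in double-negative cells (-0.36). Wt1os, an antisense transcript whose row lies 19 bases from that of Wt1, was at 0.269 FPKM in double-negative cells, 0.0333 FPKM in single-positive cells and 0.0153 FPKM in double-positive cells, and at 0.00883 FPKM in Zscan4-positive against 0.0405 FPKM in Zscan4-negative cells. It did not reach 1 FPKM and was not compared. Overlap was checked against the gene extents of GENCODE M21 and not against the deposited rows. Gm26684, a bidirectional promoter long noncoding gene on the opposite strand at 54952070 to 54964642, overlapped the extent of Enpp2. It lies beyond the end of the deposited Enpp2 row. No other gene overlapped the extents of the 4.

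Markers of other cells were present in part of the data. Summed over 13 fibroblast genes, 0 of them at 0 in double-negative cells, the level was 1475 FPKM in double-negative cells, 1057 FPKM in single-positive cells and 26.5 FPKM in double-positive cells, and 33.4 FPKM in Zscan4-positive against 20.6 FPKM in Zscan4-negative cells. Over 12 T lineage genes the sum was 603 FPKM in double-negative cells, 430 FPKM in single-positive cells and 38.8 FPKM in double-positive cells, and 25.9 FPKM in Zscan4-positive against 29.2 FPKM in Zscan4-negative cells. The single-positive level was 68.7 to 73.6% of the double-negative level for the 11 compared fibroblast genes and 46.2 to 115% for the 11 compared T lineage genes. For Pim2, Enpp2, Wt1 and Vrtn it was 11.1 to 13.6%, but these low values are among those that chose the genes. The part of other cells in the differences of the 4 genes was not tested. In the Zscan4 sort 1 fibroblast gene, Thy1, was higher (1.59) and 0 lower, and 0 T lineage genes were past 2-fold (medians 0.16 and 0.05). In the Esrrb step 0 fibroblast genes and 1 T lineage gene, Cd27 (-1.06), were past 2-fold (medians -0.48 and -0.47). In double-positive against single-positive cells 11 of 11 compared fibroblast genes and 9 of 11 compared T lineage genes were lower (medians -3.90 and -2.92).

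**Figure D5:**
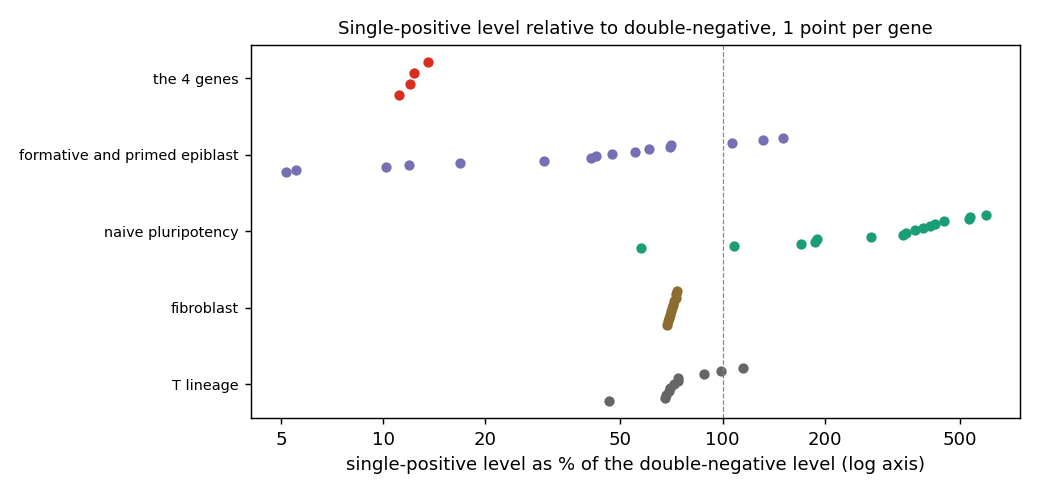
Single-positive level as a percentage of the double-negative level (x axis, log scale), 1 point per gene, for Pim2, Enpp2, Wt1 and Vrtn and for 4 marker lists (rows), with equal levels dashed. The 4 genes lie at 11.1 to 13.6%, the fibroblast genes at 68.7 to 73.6% and the naive factors at 57.5 to 596%.

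Other cell type lists were mixed. In the Esrrb step, 6 trophectoderm genes were compared (median -0.51), of which the factor genes Tead4 (1.49) and Tfap2c (2.67) were higher and the keratin genes Krt8 (-1.07) and Krt18 (-1.82) lower, and 0 were past 2-fold in the Zscan4 sort (median 0.02). Of 6 compared genes of primitive endoderm, the laminin gene Lama1 (1.33) was higher and the adaptor gene Dab2 (-1.05) lower in the Esrrb step (median -0.46). In the Zscan4 sort 0 were past 2-fold (median 0.31). Between double-positive and single-positive cells 5 of the 6 were lower (median -1.37), against 6.94% of all compared rows. All 11 compared fibroblast genes were lower there too. The part of other cells in the Esrrb step median of this list was not tested. Mesothelium and kidney markers, tissues in which Wt1 is known, were near the floor: 4 of 10 reached 1 FPKM. Their sum over all 10 was 14.3 FPKM in double-negative and 4.12 in Zscan4-negative cells. Of the former, Osr1 held 7.18 FPKM, and it was at 5.22 FPKM in single-positive and 0.0986 FPKM in double-positive cells. In either sort 0 were past 2-fold (medians 0.01 and 0.06). Osr1 (-0.40) and Krt19 (-0.34) were lower and Msln (0.46) and Pax8 (0.36) higher in the Esrrb step. All 10 compared rows of the 2-cell-like list were higher in Zscan4-positive cells (median 4.94). They reached 1 FPKM only there, so the filter and the sort itself favoured this count. In the Esrrb step 0 were past 2-fold (median -0.13). There none exceeded 0.355 FPKM in double-negative or single-positive cells, too low to reach 2-fold with a pseudocount of 1.

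The sorted genes followed their labels. Esrrb was at 43.3 FPKM in double-negative cells, 177 FPKM in single-positive cells and 243 FPKM in double-positive cells, and Tbx3 at 0.638 FPKM, 1.75 FPKM and 12.6 FPKM in the same fractions. Zscan4c was at 120.3 FPKM in Zscan4-positive against 0.255 FPKM in Zscan4-negative cells. Pou5f1, which defines pluripotent cells, was at 1987 to 2762 FPKM in all 5 fractions. FPKM totals ranged from 507495 to 552117.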

How the data were processed

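RNA of 10 libraries from 5 sorted fractions was sequenced. The tools, per the submitters' processing notes, were Cuffdiff 2.2.1, Cufflinks, TopHat2 2.0.14 and bcl2fastq 1.8.4, with the build mm10; annotation, replicate merging and strand setting were not given in the sources used here. The deposited table holds FPKM values, 1 for each row in each fraction, from which depth cannot be read. Rows that reached 1 FPKM in any fraction were compared as differences of log2(FPKM + 1), with a 2-fold size rule and no test, because 1 value per fraction has no spread. Symbols were stripped of trailing spaces, and rows of 1 symbol were kept apart. Starts, which count from 0 in the table, are written from 1. Biotypes came from a RefSeq gene table of GRCm38.p6. The 4 genes, the 17 gene lists and the rules were chosen with earlier results of these data known. Named genes were the 4, up to 4 members per list with the largest difference past 2-fold, the 3 nearest profiles to each gene and the 5 nearest to their mean, of which 1 is not reported here; Fgf5, relatives within 2-fold, neighbours, genes around the 2-fold mark and sorted genes were named after their values were seen. The counting step was checked on simulated data with known folds, which says nothing about the observed number. Alternatives were the pseudocount, the filter, 2 column scalings, summed rows and the kind of symbol. Python 3.11.15, pandas 2.3.3, numpy 2.4.6 and matplotlib 3.10.9 were used.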

Additional observations from a re-analysis of the deposited data

How the results depend on the processing

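Of 20 differences, the 4 genes in 5 comparisons, each under 5 alternatives, 93 of 100 values kept their direction and their side of the 2-fold mark and 0 reversed. Among the 93 are the 20 values with rows of 1 symbol summed. Each of the 4 genes had a single row, so this alternative could change none of them and carries no information on them. With a pseudocount of 5 the Zscan4 sort differences of Enpp2 (-0.70), Wt1 (-0.64) and Vrtn (-0.49) and the double-positive minus Zscan4-negative differences of Enpp2 (-0.68), Wt1 (-0.74) and Vrtn (-0.60) no longer reached 2-fold; a larger pseudocount shrinks differences of genes at a few FPKM by construction. With median-ratio scaling Vrtn in the Zscan4 sort was at -0.997, just short of 2-fold. The number of rows lower in both sorts, 46, was 108 with a pseudocount of 0.1 and 6 with a pseudocount of 5, so it depended strongly on this choice. It was 40 to 50 under the other settings run. Without the filter on low values it was 46 by construction, which carries no information. A row under 1 FPKM in every fraction cannot be 2-fold lower with a pseudocount of 1. Leaving out rows in the fibroblast range of the single-positive to double-negative ratio, an alternative chosen after the data were seen, could remove none of the 46 by construction and carries no information. Scaling to equal totals moved the median of all rows by -0.11 in double-positive against double-negative cells, and by less than 0.1 elsewhere, as did median-ratio scaling in every comparison. No paired analysis was possible because each fraction's 2 libraries were merged into 1 value, and for the same reason no replicate could be left out. Spread and depth are unknown, so that a difference near the 2-fold mark, such as that of Vrtn in the Zscan4 sort, cannot be placed on either side of it.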

Other observations

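There were 26 other genes lower in both sorts with a RefSeq promoter, 37 promoters in all. Of these, 0 promoters held the octamer or the TCF/LEF letters found before Pim2, 1 held the ESRRB letters and 4 the OTX letters. Over all 32817 promoters the shares were 1.60%, 3.21%, 4.08% and 6.25%. Counts this small cannot be set apart from those shares. The motifs were also chosen after the Pim2 sequence had been seen, so these counts are no finding. Among the 42 other rows lower in both sorts, 35 stayed within 2-fold between double-positive and single-positive cells, while 5 were at least 2-fold lower and 2 at least 2-fold higher; over all compared rows 6.94% were lower and 0.346% higher. Double-negative cells were highest with Zscan4-negative cells next in 29 of the 42, and 4 had the full order of Pim2, Wt1 and Vrtn. The choice of these rows by both sorts favours such orders.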
